A study of Mus musculus with 11 samples.

Results

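The wall of the seminiferous tubule is a thin layer around the epithelium in which germ cells develop. Its peritubular myoid cells are smooth-muscle-like and contract by way of actin and smooth muscle myosin, and with the Sertoli cells they lay down the basement membrane of laminin, type IV collagen, nidogen and perlecan on which the epithelium rests. Outside that membrane lie fibrillar collagens, microfibrils and small proteoglycans. Myoid cells arise in the fetal testis under Desert hedgehog (received by PTCH1) and platelet-derived growth factor (received by PDGFRA and PDGFRB), and fibroblasts and the vessel walls of the testis use many of the same genes.

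The genes described here are 39 named contractile, collagen, laminin, other matrix and receptor genes of this wall, out of 22259 genes listed in each library. They were chosen by symbol and not by a rule on level, though with earlier results of these data known, and each symbol matched 1 Ensembl gene. By role they are 11 contractile genes, 5 fibrillar collagen genes, 10 basement membrane genes, 10 genes of microfibrils, proteoglycans and matricellular proteins, and 3 receptor genes. All 39 passed the filter on low counts that left 15139 genes for testing. RNA came from whole untreated testes of adult mice on a C57BL/6J background, 3 Ccer1-/- (KO) and 3 wild-type (WT, Ccer1+/+). The KO mice carry frameshift deletions made with CRISPR-Cas9 in *Ccer1*, a gene of haploid germ cells, and the study took 1 of its deletion lines forward for its pathology without stating whether that line gave the RNA. Whether the members are made by myoid cells, fibroblasts, Sertoli cells or vessels cannot be read from whole testis, and fewer cells of a type and less RNA per cell cannot be told apart.

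Libraries held 15970289 to 16552947 counts in KO and 16259579 to 19621550 counts in WT. *Ccer1* was at 82.1, 93.0 and 88.3 CPM (counts per 1000000 after TMM scaling) in KO replicates 1, 2 and 3, against 439, 610 and 529 CPM in WT replicates 1, 2 and 3, so every library matched its genotype label. It was the only gene of the 15139 with an adjusted p under 0.05 (log2 fold change −2.58 KO over WT, SE 0.15, edgeR quasi-likelihood adjusted p = 0.000735), which is 0.00661% of the genes tested. Over all genes replicate 1 of WT stood farthest from its group: read counts of KO pairs differed by a chi-square per degree of freedom of 2.65 to 10.4, against 69.8 and 52.5 for replicate 1 of WT with WT replicates 2 and 3 and 13.6 between those. Without replicate 1 of WT 3337 genes were called, which is 21.7% of those tested, with 1 member (*Nid2*) among them. Of the cell type lists that of elongating spermatids had the highest sum, at 13612 to 15027 CPM over the libraries. The round spermatid list summed to 2094 to 2425 CPM and the Leydig list to 1248 to 2194 CPM. *Odf2*, of the sperm tail, had the highest level among the elongating spermatid markers. It was at 4799, 4673 and 4809 CPM in KO libraries, against 4581, 4576 and 5217 CPM in WT libraries. The 39 members summed to 1269, 1288 and 816 CPM in KO replicates 1, 2 and 3, against 1062, 1493 and 886 CPM in WT replicates 1, 2 and 3.

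No member differed between the genotypes by more than the spread between libraries. Of the 39, 0 had an adjusted p under 0.05 and 0 had an unadjusted p under 0.05, against 2.89% of all genes tested for the unadjusted threshold (edgeR quasi-likelihood test). DESeq2 also called 0 members, against 0.033% of all genes. No member had KO and WT libraries that failed to overlap, against 8.34% of all genes tested. The members' log2 fold changes, KO over WT, were positive for 21 and negative for 18, with a median of 0.01 beside 0.04 for all genes tested. They ran from −0.53 for *Hspg2* (perlecan, the large heparan sulfate proteoglycan of basement membranes) to 0.81 for *Lum* (lumican, a small proteoglycan that binds collagen fibrils). The lowest unadjusted p among the members was 0.103 and the adjusted p-values lay between 0.786 and 1.00.

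**Figure D1:**
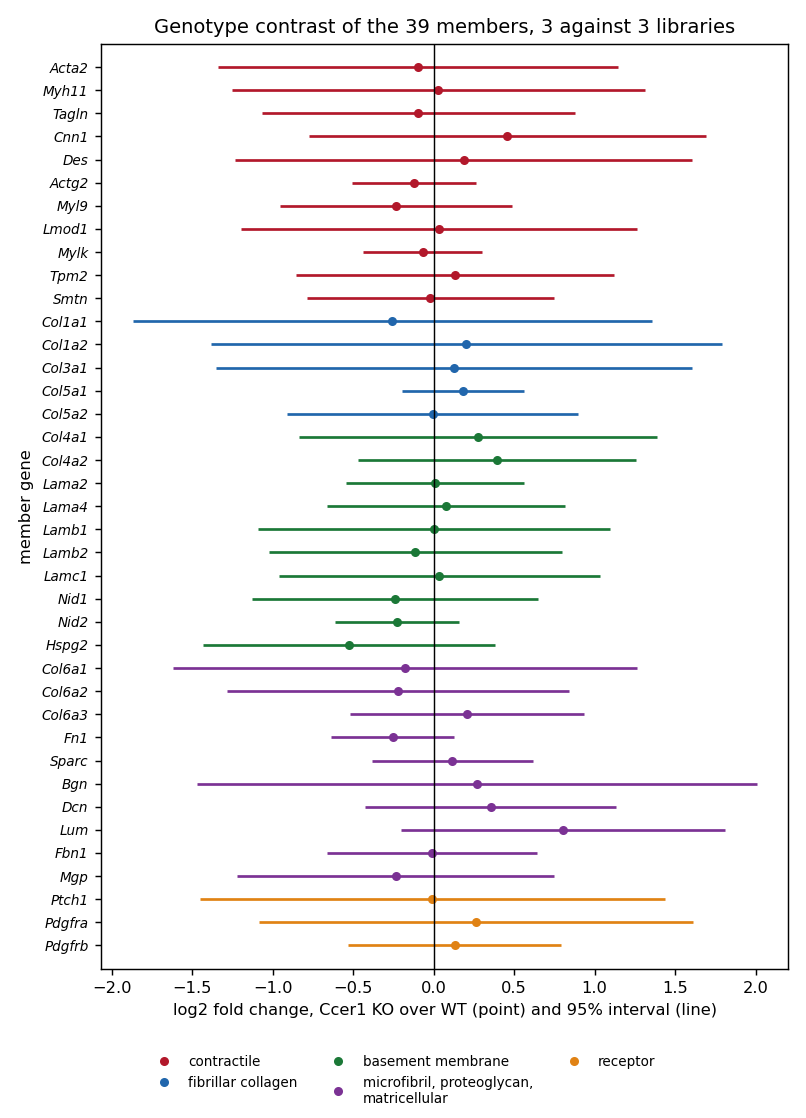
The horizontal axis gives the log2 fold change of each member, KO over WT, as a point with its 95% interval as a line; members run down the page and are coloured by role (3 KO and 3 WT libraries). All 39 intervals include 0, and the intervals of *Actg2*, *Mylk* and *Nid2* are much narrower than those of *Bgn* and *Col1a1*.

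The intervals differed in width by gene. For 14 members the 95% interval lay within 1 log2 unit of 0 on either side, which is 35.9% of the members against 75.6% of all genes tested. These were *Actg2*, *Myl9*, *Mylk*, *Smtn*, *Col5a1*, *Col5a2*, *Lama2*, *Lama4*, *Nid2*, *Col6a3*, *Fn1*, *Sparc*, *Fbn1* and *Pdgfrb*. For the other members the interval reached past 1 log2 unit in at least 1 direction. These intervals are from the fit without a block on replicate number. With that block the SE of *Bgn* was 0.19, against 0.77 without, and that of *Fn1* was 0.18, against 0.17. The SD of log2 CPM over the 6 libraries had a median of 0.67 for the members (0.16 for *Col5a1* to 1.46 for *Bgn*) against 0.28 for all genes tested, and the highest library exceeded the lowest by a median of 3.30-fold among the members against 1.65-fold.

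That spread had 1 shape in most members. Replicate 3 of KO and replicate 3 of WT were both below the other 4 libraries in 34 of the 39 members, against 14.1% of all genes tested. The exceptions were *Actg2*, *Col5a1*, *Nid2*, *Fn1* and *Lum*. Taken over the members, the log2 level relative to each gene's mean over the 6 libraries averaged 0.38, 0.46 and −0.76 in KO replicates 1, 2 and 3, against 0.15, 0.54 and −0.77 in WT replicates 1, 2 and 3. Over all genes tested the same average was 0.08, 0.07 and −0.05 in KO, against 0.04, −0.03 and −0.11 in WT. Replicate 3 of KO was the lowest library for 16 members and replicate 3 of WT for 19, against 18.5% and 17.7% of all genes. Replicate 2 of WT was the highest for 20 members, or 51.3%, against 21.5% of all genes, and replicate 1 of WT was the highest for 0 members, against 18.3% of all genes. Replicate numbers are taken from the labels, which say nothing of a shared litter, day or batch, and the pattern is given as a description with no test.

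**Figure D2:**
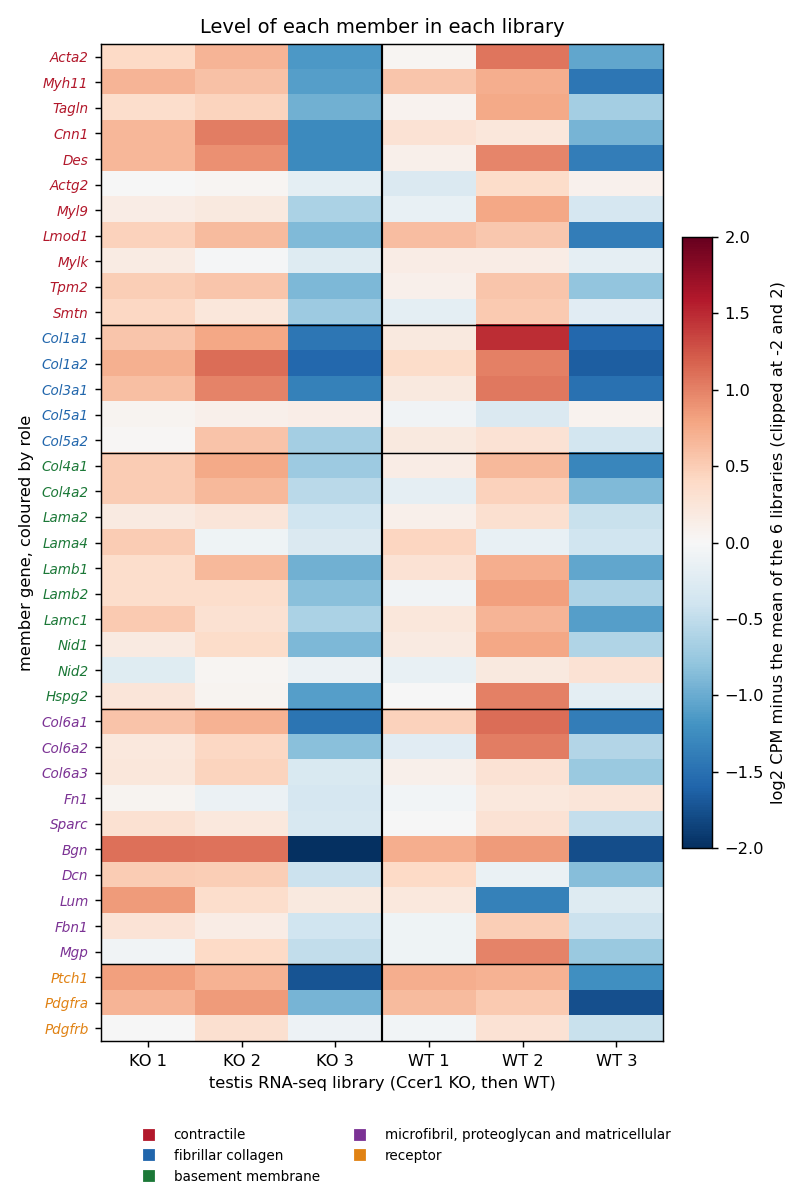
Each cell gives the log2 CPM of a member in a library minus that gene's mean over the 6 libraries, in blue where lower and red where higher, with KO replicates left of the line and WT replicates right of it and rows coloured by role. The cells of KO 3 and WT 3 are both blue and the lowest of the row for 34 members, which does not hold for *Actg2*, *Col5a1*, *Nid2*, *Fn1* and *Lum*, and WT 2 is the highest library for 20 members.

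The contractile genes encode the actin and myosin of smooth muscle and the proteins that regulate them. *Acta2*, smooth muscle alpha actin and the usual marker of myoid cells, was at 46.2, 55.9 and 15.8 CPM in KO replicates 1, 2 and 3, against 35.9, 73.2 and 17.0 CPM in WT replicates 1, 2 and 3. *Myl9*, the regulatory light chain of smooth muscle myosin, was at 42.8, 44.3 and 25.1 CPM in KO, against 35.1, 66.2 and 30.9 CPM in WT. *Actg2*, smooth muscle gamma actin, was at 350, 360 and 308 CPM in KO, against 286, 450 and 372 CPM in WT. The genotypes overlapped for all 3 genes, and replicate 3 was the lowest of its genotype for *Acta2* and *Myl9* and for *Actg2* in KO only. The log2 fold changes were −0.10 for *Acta2* (SE 0.55), −0.24 for *Myl9* (SE 0.32) and −0.12 for *Actg2* (SE 0.17), with edgeR adjusted p-values of 0.963, 0.837 and 0.838. In the mouse testis smooth muscle gamma actin is also transcribed in haploid germ cells, and per kilobase of transcript *Actg2* was the most abundant member at a mean of 266 CPM per kb, followed by *Sparc* at 117, *Myl9* at 36.1 and *Acta2* at 22.8. Actin genes are near-identical in their coding sequence, so the split of reads between *Acta2* and *Actg2* is uncertain. The ratio of *Acta2* to *Actg2* per kilobase was 0.0987, 0.116 and 0.0386 in KO replicates 1, 2 and 3, against 0.0938, 0.122 and 0.0341 in WT.

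The remaining contractile genes also had both replicate 3 libraries lowest, while the order of the other 4 libraries differed by gene. *Myh11*, the heavy chain of smooth muscle myosin, was at 35.3, 33.1 and 10.3 CPM in KO, against 32.4, 36.6 and 8.08 CPM in WT, so replicate 3 held 30.2% of the mean of the other KO libraries and 23.4% of the mean of the other WT libraries. *Des* (desmin, the muscle intermediate filament), *Cnn1* (calponin, an actin-binding regulator of contraction), *Lmod1* (leiomodin, which nucleates actin filaments in smooth muscle), *Tpm2* (beta tropomyosin) and *Tagln* (transgelin, an actin-binding protein) held 22.8% to 38.97% in KO and 25.3% to 45.6% in WT. *Smtn* (smoothelin, of contractile smooth muscle) held 48.6% in KO and 73.9% in WT. *Mylk*, the kinase that phosphorylates the myosin light chain, varied least of these: it was at 51.8, 45.2 and 38.6 CPM in KO, against 50.8, 51.1 and 40.5 CPM in WT. Of the 11 contractile genes 10 had both replicate 3 libraries lowest, 5 had log2 fold changes above 0 and 6 below, and their median was −0.02.

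Smooth muscle contractile genes are textbook targets of serum response factor, which binds a short A- and T-rich element, the CArG box. Of the 8 contractile genes with a RefSeq promoter window (250 bases before to 50 after the start site, GRCm38.p6, both strands searched) 1 held an exact CArG box, against 1 of 19 windows of the other members and 1.63% of all 32851 windows. With up to 1 mismatch in the core, 2 of the 8 held one, against 4 of 19 and 9.98% of all windows. *Myh11*, *Tagln* and *Actg2* had no window and were not searched, so these counts do not cover all contractile members. In all 13 of the members had no window, most of them not contractile. The sites are shown 5′ to 3′ on the strand of the gene, with the box in capitals and 10 bases on each side. Those of *Acta2* and the second of *Myl9* have 1 mismatch in the core. *Lama2*, whose laminin chain is found in muscle basement membrane, is the only other member searched that held an exact box. Boxes with 1 mismatch in *Lamb1*, *Col1a2* and *Col6a3* are not shown.
Acta2 (chr19:34255438-34255467, minus strand, box −84 to −75 from the start site): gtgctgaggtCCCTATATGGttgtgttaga
Acta2 (chr19:34255388-34255417, minus strand, box −34 to −25): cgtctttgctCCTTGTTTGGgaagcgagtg
Myl9 (chr2:156775293-156775322, plus strand, box −161 to −152): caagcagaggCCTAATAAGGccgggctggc
Myl9 (chr2:156775355-156775384, plus strand, box −99 to −90): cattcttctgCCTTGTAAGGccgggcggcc
Lama2 (chr10:27616962-27616991, minus strand, box −39 to −30): aaccaaggacCCTTTAAAGGcccaggcctg
A match is a description of these letters and not a bound site. *Acta2* and *Myl9* differed in how far replicate 3 lay below the rest: *Acta2* held 31.1% of the mean of replicates 1 and 2 in KO and 31.1% in WT, and *Myl9* 57.7% in KO and 60.9% in WT.

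The fibrillar collagens form the banded fibers outside the basement membrane. *Col1a2*, a chain of type I collagen, was at 15.1, 20.0 and 3.10 CPM in KO, against 11.8, 18.4 and 2.94 CPM in WT. *Col1a1*, the other chain of type I collagen, was at 5.35, 6.19 and 1.34 CPM in KO, against 4.14, 10.1 and 1.22 CPM in WT. *Col3a1*, type III collagen, was at 10.1, 13.3 and 2.61 CPM in KO, against 7.68, 13.8 and 2.39 CPM in WT. In these genes both replicate 3 libraries held 17.2% to 23.1% of the mean of the other libraries of their genotype. *Col5a1*, a chain of type V collagen, which starts new fibrils, went against this: it was at 15.1, 15.5 and 15.9 CPM in KO, against 13.8, 11.9 and 15.3 CPM in WT. *Col5a2*, its partner chain, had both replicate 3 libraries lowest, at 0.789 to 1.88 CPM in KO and 0.980 to 1.54 CPM in WT. The log2 fold changes of the 5 genes were −0.26 for *Col1a1*, 0.20 for *Col1a2*, 0.12 for *Col3a1*, 0.18 for *Col5a1* and −0.01 for *Col5a2*. *Col5a1* had the smallest SE of the group, 0.17, with an edgeR adjusted p of 0.791. Type I collagen is made of both chains, and the ratio of *Col1a2* to *Col1a1* per kilobase stayed within 2.57 to 3.58 in KO libraries and 2.03 to 3.15 in WT libraries while over the 6 libraries *Col1a2* varied 6.80-fold and *Col1a1* 8.23-fold.

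The basement membrane genes encode the sheet between the myoid cells and the epithelium. Per kilobase the most abundant were *Nid2*, *Lamb2* and *Nid1*, at means of 5.41, 4.70 and 3.65 CPM per kb. *Nid1*, nidogen 1, which links laminin to type IV collagen, was at 23.2, 26.5 and 10.9 CPM in KO, against 23.2, 34.9 and 13.5 CPM in WT. *Lamb2*, the laminin beta 2 chain, was at 31.2, 31.2 and 13.8 CPM in KO, against 23.3, 43.1 and 16.0 CPM in WT. *Nid2*, nidogen 2, was at 22.1, 26.8 and 24.0 CPM in KO, against 23.7, 29.9 and 32.0 CPM in WT. *Nid1* and *Lamb2* thus had both replicate 3 libraries lowest, and *Nid2* had its highest value in replicate 3 of WT. *Nid2* had a log2 fold change of −0.23 (SE 0.17, edgeR adjusted p = 0.786, range 0.0482 to 1.00 over the alternatives). It was the only member called under any alternative: with replicate 1 of WT left out its log2 fold change was −0.42 (adjusted p = 0.0482), a fit in which 12.5% of all genes were called lower.

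The 2 ubiquitous chains of type IV collagen, the network of the membrane, were close to each other in level. *Col4a1* was at 19.6, 23.3 and 8.32 CPM in KO, against 15.3, 21.6 and 5.57 CPM in WT, and *Col4a2* at 22.6, 25.0 and 10.99 CPM in KO, against 14.1, 21.9 and 8.69 CPM in WT. Per kilobase the ratio of *Col4a2* to *Col4a1* lay between 1.10 and 1.35 in KO libraries and between 0.945 and 1.60 in WT libraries. The log2 fold changes were 0.27 for *Col4a1* (95% interval −0.84 to 1.38) and 0.39 for *Col4a2* (−0.47 to 1.26). The genes lie head to head on chromosome 8 and share a promoter region. In the RefSeq promoter windows the start of *Col4a1*, on the minus strand, is at 11312826 and that of *Col4a2*, on the plus strand, at 11312805. Transcripts from these 2 starts overlap in their first 22 bases. The gene record of *Col4a1* reaches farther, to 11312889. The *Col4a1* window (300 bases, GRCm38.p6, 74% G and C) is shown because this region serves both genes, with the bases from one start site to the other in capitals.
Col4a1 (chr8:11312777-11313076, minus strand): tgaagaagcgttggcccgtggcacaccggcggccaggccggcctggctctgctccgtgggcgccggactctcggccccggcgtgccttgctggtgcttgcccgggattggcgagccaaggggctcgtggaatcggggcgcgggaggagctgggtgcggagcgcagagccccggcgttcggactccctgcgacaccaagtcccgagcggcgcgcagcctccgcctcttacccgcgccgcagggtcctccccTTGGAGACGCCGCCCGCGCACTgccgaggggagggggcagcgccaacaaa
In both genes replicate 3 of WT was the lowest library and replicate 2 of KO the highest, and for neither did KO and WT differ beyond the spread.

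The other laminin genes showed the low replicate 3 to a different extent. *Lamb1* (laminin beta 1) and *Lamc1* (gamma 1, shared by most laminins) held 36.2% and 48.5% of the mean of the other libraries in KO replicate 3, against 33.9% and 33.4% in WT replicate 3. *Lama2* and *Lama4*, the alpha chains of muscle and of vessel walls, held 65.9% and 69.2% in KO, against 63.2% and 67.8% in WT. *Hspg2* was at 29.4, 25.7 and 11.5 CPM in KO, against 24.6, 49.9 and 21.5 CPM in WT, and its log2 fold change of −0.53 (95% interval −1.44 to 0.38) was the lowest of the members. Its WT libraries spanned all but 1 of the KO libraries, and without replicate 2 of WT the fold change was −0.10. Of the 10 basement membrane genes 6 had log2 fold changes above 0 and 4 below, with a median of 0.01.

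The widest variation of any member belonged to *Bgn*, biglycan, a small proteoglycan of collagen matrix. It was at 20.8, 20.5 and 2.43 CPM in KO, against 15.9, 17.4 and 2.82 CPM in WT. Replicate 3 thus held 11.8% of the mean of the other KO libraries and 16.9% of the mean of the other WT libraries, with 40 counts in the lowest library. *Sparc*, a secreted collagen-binding protein and the most abundant matrix member, was at 323, 305 and 210 CPM in KO, against 262, 322 and 190 CPM in WT. *Mgp*, matrix Gla protein, which prevents calcification of vessels and cartilage, was at 3.87, 5.40 and 2.91 CPM in KO, against 3.84, 8.10 and 2.45 CPM in WT. In all 3 genes both replicate 3 libraries were lowest and the genotypes overlapped.

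Type VI collagen forms beaded microfibrils around cells from 3 chains. *Col6a1* held 23.4% of the mean of replicates 1 and 2 in KO replicate 3 and 21.7% in WT replicate 3. *Col6a2*, which lies next to it on chromosome 10, held 45.2% in KO and 45.8% in WT, so the ratio of *Col6a2* to *Col6a1* per kilobase was 0.377, 0.402 and 0.752 in KO replicates 1, 2 and 3, against 0.305, 0.457 and 0.840 in WT. The chains therefore did not keep a fixed ratio, and in each genotype the ratio was highest in replicate 3. *Col6a3* held 63.8% in KO and 52.1% in WT. *Fbn1* (fibrillin 1, the core of elastic microfibrils) held 65.7% in KO and 63.6% in WT. *Fn1*, fibronectin, which cells bind through integrins, was at 25.1, 22.4 and 19.2 CPM in KO, against 23.2, 28.0 and 28.5 CPM in WT, with a log2 fold change of −0.26 (95% interval −0.64 to 0.13).

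*Dcn* (decorin) and *Lum* belong to a cluster of small leucine-rich proteoglycan genes that lies beside *Ccer1* on chromosome 10. In GRCm38 *Ccer1* starts at 97693059, which is 174896 bases past the end of *Dcn* (97479500 to 97518163) and 120356 bases past the end of *Lum* (97565501 to 97572703). *Dcn*, which binds collagen fibrils and limits their width, was at 26.9, 26.5 and 13.96 CPM in KO, against 24.9, 17.2 and 10.5 CPM in WT. *Lum* was at 1.72, 1.21 and 1.09 CPM in KO, against 1.10, 0.371 and 0.796 CPM in WT, from 6 counts in the lowest library. For *Lum* the lowest KO library, at 1.09 CPM, was reached only by the highest WT library, at 1.10 CPM, and *Dcn* overlapped more widely. The log2 fold changes were 0.35 for *Dcn* (95% interval −0.43 to 1.13, edgeR adjusted p = 0.797) and 0.81 for *Lum* (−0.20 to 1.81, adjusted p = 0.786). *Epyc*, epiphycan, the nearest neighbour at 11151 bases and named here after its values were seen, was at 21.9, 18.03 and 21.7 CPM in KO, against 19.4, 9.95 and 13.96 CPM in WT (log2 fold change 0.51, unadjusted p = 0.0682, adjusted p = 0.786). *Btg1*, an antiproliferative gene on the other side, was at 111, 110 and 119 CPM in KO, against 114, 101 and 104 CPM in WT (log2 fold change 0.09). Of the 4 tested neighbours 4 had a positive log2 fold change, as did 8390 of the 15139 genes tested, and 0 passed the test.

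The receptors take the signals that specify the myoid lineage. *Ptch1*, receptor and target gene of the Hedgehog pathway, was at 10.6, 9.71 and 1.82 CPM in KO, against 9.98, 9.70 and 2.57 CPM in WT. *Pdgfra* was at 13.7, 15.4 and 4.49 CPM in KO, against 13.2, 12.2 and 2.51 CPM in WT. *Pdgfrb*, which marks pericytes as well, was at 2.34, 2.91 and 2.19 CPM in KO, against 2.24, 2.84 and 1.71 CPM in WT. Replicates 1 and 2 of the genotypes were almost level for *Ptch1*, and its log2 fold change was −0.01 with a 95% interval of −1.45 to 1.43. With replicate 3 of both genotypes left out, a setting chosen after the values were seen, the fold change of *Ptch1* was 0.00 with an SE of 0.21, against an SE of 0.64 with all 6 libraries. In that fit the SE of the members had a median of 0.28, against 0.43 with all libraries, while over all genes tested it was 0.26, against 0.22. The libraries left out were the lowest for most members, so the smaller SE of the members follows from that choice. In that fit 0 members and 0 genes in all, *Ccer1* included, passed the adjusted threshold, and 0 members had an unadjusted p under 0.05, against 0.792% of all genes, so the count says nothing particular to the members. Their median log2 fold change was −0.05.

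**Figure D3:**
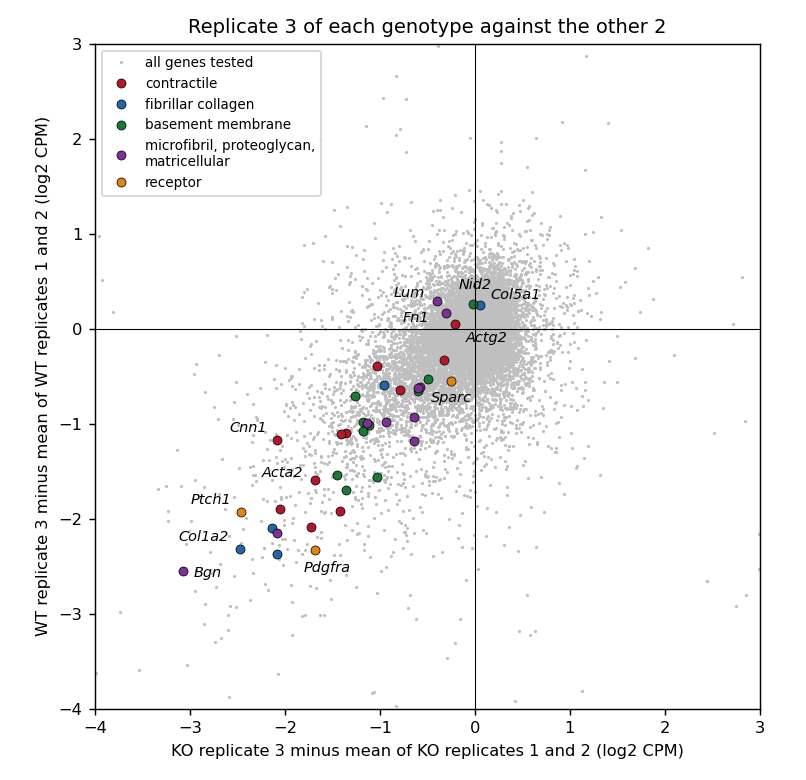
The axes give, for KO (horizontal) and WT (vertical), the log2 CPM of replicate 3 minus the mean of replicates 1 and 2; grey points are all genes tested, of which 41 lie outside the axes, and coloured points are the members by role. Most members lie in the lower left quadrant along the diagonal, from *Bgn* at −3.07 and −2.55 to *Col5a1* at 0.05 and 0.25.

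How far replicate 3 lay below the others was alike in the 2 genotypes gene by gene. The median log2 difference of replicate 3 from the mean of replicates 1 and 2 was −1.13 in KO and −1.01 in WT for the members, against −0.00 and −0.01 for all genes tested. Across the 39 members the KO and WT differences had a Pearson correlation of 0.89, against 0.43 across all genes tested. Genes are not independent replicates, and the points of each genotype share the same 3 libraries, so this is a description. By role the median difference was −2.08 in KO and −2.10 in WT for the fibrillar collagens, −1.69 and −1.92 for the receptors, −1.41 and −1.11 for the contractile genes, −1.14 and −0.996 for the basement membrane and −0.64 and −0.96 for the microfibril, proteoglycan and matricellular genes.

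Markers of other somatic cell types, of the interstitium and of the Sertoli cells inside the tubule, were low in the same libraries to different extents. Of the 10 macrophage markers 9 had both replicate 3 libraries lowest, against 14.1% of all genes tested. The list summed to 97.9, 98.3 and 36.6 CPM in KO replicates 1, 2 and 3, against 91.1, 93.6 and 28.9 CPM in WT. *Mrc1*, the mannose receptor and the most abundant of them, was at 33.6, 26.8 and 14.2 CPM in KO, against 32.9, 20.5 and 11.6 CPM in WT. Of the 10 endothelial markers 6 had both replicate 3 libraries lowest, and they summed to 31.8 to 55.5 CPM in KO and 43.1 to 74.0 CPM in WT, led by *Vwf*, von Willebrand factor, at 17.3 to 23.7 CPM in KO and 19.3 to 38.4 CPM in WT. Of the 11 tested Sertoli markers 6 and of the 9 tested Leydig markers 2 did so, with median log2 differences of replicate 3 of −0.48 and −0.46 in KO and −0.45 and −0.31 in WT. *Clu*, clusterin, of Sertoli cells, was at 884, 916 and 635 CPM in KO, against 811, 979 and 651 CPM in WT, and *Insl3*, the peptide hormone of Leydig cells, was at 756, 821 and 572 CPM in KO, against 558, 1287 and 684 CPM in WT. Of the 8 round and 8 elongating spermatid markers 0 had both replicate 3 libraries lowest, and the round and elongating spermatid lists had median differences of −0.01 and −0.03 in KO and 0.07 and 0.10 in WT. The part of these cell types in the members' pattern was not tested.

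Of the markers of blood, vessel walls and tissues next to the testis, the most abundant of each list was at a level like that of some members. Most markers of the nearby tissues were not among the genes tested. Those tested were 2 of 9 epididymal, 3 of 8 skeletal muscle, 2 of 7 fat and 1 of 6 mesothelial markers. Of the red blood cell markers 3 of 6 were tested, and of those of pericytes and vascular smooth muscle 6 of 6. The most abundant marker thus does not stand for its list. Of the epididymal markers *Lcn5*, *Lcn8* and *Defb20* were at 0 in every library, and the most abundant, *Rnase10*, was at 4.13 to 5.29 CPM in KO and 3.89 to 4.10 CPM in WT. *Myh1*, a skeletal muscle myosin, was at 0.789 to 1.40 CPM in KO and 0.612 to 1.98 CPM in WT, *Lrrn4*, of mesothelium, at 2.61 to 4.06 CPM in KO and 2.88 to 5.19 CPM in WT, and *Adipoq*, of fat, at 4.13 to 5.59 CPM in KO and 4.16 to 6.80 CPM in WT. *Mcam*, of pericytes and vascular smooth muscle, was at 10.4 to 16.3 CPM in KO and 13.2 to 15.1 CPM in WT. Of the 6 markers of that list 2 had both replicate 3 libraries lowest, against 14.1% of all genes tested. *Alas2*, of red blood cells, was at 16.9 to 25.6 CPM in KO and 20.3 to 29.7 CPM in WT.

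**Figure D4:**
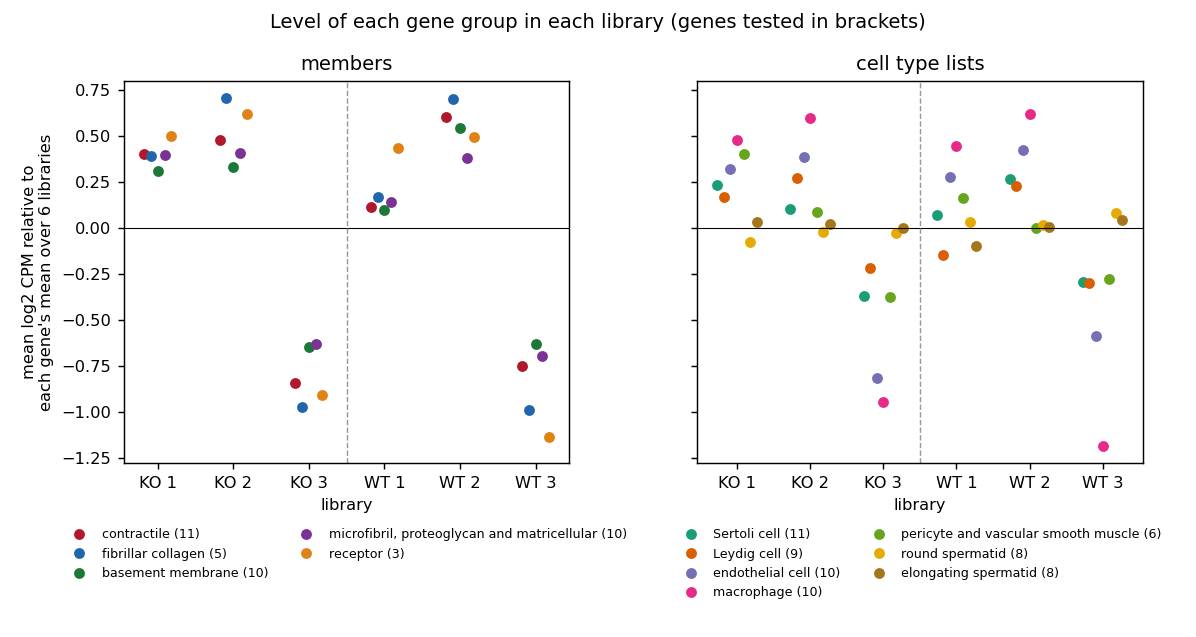
Each point is the mean, over the tested genes of a group, of log2 CPM relative to each gene's mean over the 6 libraries; the left panel holds the 5 role groups of members and the right panel 7 cell type lists, with KO libraries left of the dashed line. All 5 role groups, the macrophage list and the endothelial list are at −0.59 or below in KO 3 and WT 3, whereas the 2 spermatid lists stay between −0.10 and 0.08 in all 6 libraries.

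The members' transcripts were longer and richer in G and C than most, with a median of 5423 bases and 53.5% GC against 2950.5 bases and 50.3% for the genes tested that have a transcript model. Across the members the Spearman correlation of the difference of replicate 3 with GC content was −0.10 in KO and −0.04 in WT. With length it was 0.16 in KO and 0.12 in WT. Across all genes tested the Spearman correlation with GC content was −0.22 in KO and 0.36 in WT, and with length −0.14 in KO and −0.18 in WT. After a curve on length and GC content was removed from each library, 31 of the 39 members had both replicate 3 libraries lowest, against 12.6% of all genes tested. Before the curve these were 34 members and 14.1%. The median difference was −0.83 in KO and −0.94 in WT after the curve, against −1.13 and −1.01 before it. The part of length and GC content in the members' pattern was not tested.

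Genes of the same pathways that are not members were examined as 24, 17, 22, 18, 14, 10 and 4 tested genes in separate lists. Of all these genes 0 passed the edgeR test in either direction. Only 1 (*Timp1*) had an unadjusted p under 0.05, against 2.89% of all genes tested. Among 24 genes tested of the other contractile list, 14 had log2 fold changes above 0 and 10 below (median 0.07). Both replicate 3 libraries were lowest for 11, against 14.1% of all genes tested. These counts include *Mal* of chromosome 2, which is not a contractile gene and was matched in error to the symbol *Mrtfa*. Its log2 fold change was 0.22, and both its replicate 3 libraries were lowest. The most abundant of them per kilobase was *Myl6*, a myosin light chain of most cells, at 76.4, 78.6 and 67.6 CPM in KO, against 55.4, 122 and 89.8 CPM in WT. Among 17 other collagens and laminins the median was 0.01, and 7 had both replicate 3 libraries lowest. Their most abundant gene per kilobase was *Col16a1*, at 63.4, 59.9 and 66.2 CPM in KO, against 61.8, 73.4 and 92.4 CPM in WT, followed by *Lamc3*, the laminin gamma 3 chain. Among 22 other matrix protein genes tested the median was 0.02, and 11 had both replicate 3 libraries lowest. *Fbn2*, fibrillin 2, led them at 39.04 to 47.2 CPM in KO and 40.4 to 61.8 CPM in WT, followed by *Efemp2*, fibulin 4, at 3.70 to 6.19 CPM in KO and 3.99 to 9.40 CPM in WT.

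Among 18 genes of collagen processing and matrix turnover, 1 had an unadjusted p under 0.05, against 2.89% of all genes tested and 0 genes in the other related lists. In this list 1 gene had no overlap between KO and WT, against 8.34% of all genes tested. *Timp1*, a secreted inhibitor of matrix metalloproteinases, was at 2.15, 0.971 and 1.03 CPM in KO, against 0.399, 0.865 and 0.429 CPM in WT. Its lowest KO library lay above its highest WT library, and its log2 fold change of 1.298 (SE 0.49, unadjusted p = 0.0276, edgeR adjusted p = 0.786) did not pass the test. *Timp2*, an inhibitor of the same family and the most abundant of the list per kilobase, was at 161, 142 and 78.6 CPM in KO, against 137, 126 and 74.3 CPM in WT. *Pcolce*, the enhancer of procollagen cleavage, was at 38.5, 49.5 and 32.5 CPM in KO, against 28.8, 55.1 and 29.3 CPM in WT. Among the 14 matrix receptors 12 had a positive log2 fold change (median 0.26), against 8390 of the 15139 genes tested (median 0.04). Both replicate 3 libraries were lowest for 9 of them, against 14.1% of all genes tested. *Itgb5*, an integrin beta chain, was at 29.1 to 57.4 CPM in KO and 42.3 to 69.7 CPM in WT, and *Dag1*, dystroglycan, which binds laminin, at 34.6 to 61.5 CPM in KO and 43.3 to 60.4 CPM in WT.

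Among 10 tested genes of the Hedgehog pathway 8 had a negative log2 fold change (median −0.16), against 6749 of the 15139 genes tested, and 0 passed the test. *Dhh*, the ligand made by Sertoli cells, was at 17.1, 20.8 and 11.7 CPM in KO, against 14.6, 26.9 and 16.5 CPM in WT. *Sufu*, which restrains the GLI transcription factors, was at 209, 213 and 202 CPM in KO, against 197, 295 and 271 CPM in WT. The genotypes overlapped for *Dhh* and *Sufu*. Of the 10 genes 1 did not overlap, against 8.34% of all genes tested: *Gli3*, a GLI transcription factor named after its values were seen, was at 1.60, 2.00 and 1.58 CPM in KO, against 2.49, 2.78 and 2.14 CPM in WT (log2 fold change −0.52, edgeR adjusted p = 0.786). The GLI site TGGGTGGTC was in 0 of the 8 contractile and 0 of the 19 other windows of members, against 0.253% of all windows. At so low a share 0 is the usual count for this few windows, so it says nothing particular to the members. Among the PDGF ligands *Pdgfa* was at 11.4, 12.4 and 12.0 CPM in KO, against 9.48, 13.5 and 16.8 CPM in WT, and *Pdgfc* was at 8.42, 10.3 and 8.14 CPM in KO, against 7.78, 6.67 and 6.86 CPM in WT. *Pdgfc* had a log2 fold change of 0.33 (SE 0.19, edgeR adjusted p = 0.786). KO and WT did not overlap for *Pdgfc* and *Pdgfd* of the 4 ligands, against 8.34% of all genes tested. *Pdgfd*, named after its values were seen, was at 3.81, 3.46 and 3.28 CPM in KO, against 3.04, 3.15 and 2.88 CPM in WT. Of the other related lists, 1 of 24 other contractile genes and 1 of 22 other matrix protein genes did not overlap. Among the 17 other collagens and laminins, the 14 matrix receptors and the 4 tested neighbours of *Ccer1*, 0 failed to overlap.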

How the data were processed

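The deposited files give, per the authors' processing, an estimated count for each of 22259 Ensembl genes in each of 6 mouse testis libraries, unscaled between libraries, with about 90% of values whole. Tools in the submitters' notes are HISAT2 with no version, Bowtie2 2.2.8, fastp 0.18.0 and StringTie 1.3.1, with GRCm38 (mm10) as the build. The read counter and any use of strand are not given in the sources used here, and reads of near-identical or overlapping genes may be split arbitrarily.

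After rounding, edgeR 4.0.16 in R 4.3.3 filtered genes (filterByExpr, minimum count 10, minimum total 15) and scaled libraries by TMM. The 3 KO were compared with the 3 WT libraries by its robust quasi-likelihood F test, two-sided, without covariates. Adjusted p-values are Benjamini-Hochberg values over the 15139 genes tested. Log2 levels use a prior count of 0.5. The alternatives were other scalings, DESeq2 1.42.0, other filters, a replicate block, removal of a curve on length and GC (splines of 5 degrees of freedom, transcripts of NCBIM37), other thresholds and each library left out. No 2 libraries of a genotype agreed within sampling noise, and replicate 1 of WT stood farthest apart. The study describes the samples as independent, and p-values measure only the spread between them.

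Members and lists were chosen with earlier results of these data known. Values are given per library for members with an unadjusted p under 0.05 or no overlap between genotypes, the 3 most abundant of each role per kilobase, the 5 with the largest SD of log2 CPM, *Dcn* and *Lum*, for listed genes with an unadjusted p under 0.05, the 2 most abundant of each related list, and the most abundant marker of each cell type with those at 0. A few more members are given to complete a role. List symbols not matched to a single gene numbered 4 (*Trf*, *Muc16*, *Hbb-bs*, *Hbb-bt*). Symbols absent from the gene names were matched through synonyms, by which *Mrtfa* was matched in error to *Mal*. Promoters were from RefSeq (GRCm38.p6), with a window for 26 of the 39 members. The second gene of the other contractile list is not reported here. Hi-C samples were not analysed here.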

Additional observations from a re-analysis of the deposited data

How the results depend on the processing

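Of 623 alternative values for single members, 610 moved by less than the SE of the fit and stayed on their side of the threshold, 12 moved further, and 1, that of *Nid2* without replicate 1 of WT, passed the threshold. Members called numbered 0 under every alternative except that fit, where leaving out single libraries gave 0 to 1, and genes called numbered 1 to 3337. Genes called were 5 with DESeq2, 2 with the curve on length and GC content, 0 without replicate 3 of both genotypes (4 libraries), and 438 at an unadjusted p under 0.05. The members' median log2 fold change, 0.01, ran from −0.25 to 0.32 with single libraries left out, was −0.03 with the size factors of DESeq2 and −0.02 with upper quartile factors, and so has no settled sign. Median differences of replicate 3 kept their sign under all scalings. The curve changed that of KO to −0.83. The motif was in 2 contractile windows with a mismatch allowed.

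Correlations of the deviations of same-numbered libraries over all genes tested were 0.05, 0.32 and 0.43 for replicates 1, 2 and 3. The labels give no litter, day or batch, so the main fit used no pairing, though these values do not exclude one. A block on replicate number changed the SE from 0.77 to 0.19 for *Bgn* and from 0.55 to 0.18 for *Acta2*. For *Fn1* the SE went from 0.17 to 0.18. With a replicate block 0 members and 1 gene were called, and *Col4a2* alone of the members had an unadjusted p under 0.05, against 6.33% of all genes. With the block and the curve together 0 members were called, and 4 had an unadjusted p under 0.05 (*Col5a1*, *Col1a2*, *Col4a1* and *Col4a2*), against 9.23% of all genes. *Lum*, with 107 counts in all libraries together, is limited by depth.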

Other observations

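Some matrix genes outside the set of members also varied widely among the libraries. They were picked out after their values were seen and are not a ranking. *Lamc3*, the laminin gamma 3 chain, was at 27.2, 26.7 and 3.28 CPM in KO replicates 1, 2 and 3, against 22.1, 39 and 2.51 CPM in WT replicates 1, 2 and 3. *Eln*, elastin, was at 4.12, 4.98 and 0.607 CPM in KO, against 3.84, 4.82 and 0.551 CPM in WT. *Ltbp2*, a microfibril-associated protein of the family that binds latent TGF-beta, was at 6.82, 6.56 and 1.09 CPM in KO, against 5.29, 8.47 and 0.857 CPM in WT, and *Adamts2*, which removes the N-terminal propeptide of procollagen, at 6.45, 6.50 and 0.789 CPM in KO, against 3.54, 8.78 and 1.35 CPM in WT. Among macrophage markers *Csf1r*, the receptor for the growth factor CSF1, was at 10.3, 11.3 and 1.28 CPM in KO, against 9.03, 12.0 and 1.71 CPM in WT. *Ogn* (osteoglycin, a small leucine-rich proteoglycan) had another pattern, at 2.89, 3.22 and 2.73 CPM in KO, against 5.14, 1.48 and 0.306 CPM in WT, with its KO libraries close to level. In contrast *Synm* (synemin, an intermediate filament protein) was at 23.7, 22.4 and 21.1 CPM in KO, against 23.1, 23.3 and 23.7 CPM in WT, and *Col14a1*, a fibril-associated collagen, at 18.9, 18.3 and 20.3 CPM in KO, against 20.0, 16.9 and 18.9 CPM in WT, so these genes were close to level over the 6 libraries. No cause of the difference between the genes was tested.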
